A study of Mus musculus with 2 samples.

Results

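Transcription outside annotated genes was described from contigs, which are stretches of the genome covered by RNA reads on 1 strand. A reproducible contig outside annotated genes was defined by its irreproducibility value, at most 0.01, and by its position, with no base inside any ENSEMBL gene span of the mouse build mm9 on either strand. These rules chose 19392 contigs, 10.1% of the 191153 reproducible contigs of a list of 602461. The RNA came from whole livers of C57BL/6J mouse embryos at day 14, was polyadenylated and longer than 200 nucleotides, and was sequenced on both ends with the strand kept. The series holds 1 group of 2 libraries, replicates 1 and 2, each made from littermates of both sexes pooled, with the same donor entry. The labels do not say whether both pools were taken from different litters, so spread between the libraries may be technical. No other age, tissue or genotype was compared, so values are given as levels, shares and medians without tests between conditions.

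A polyadenylated transcript can run past the annotated end of a gene, start at a promoter and go away from the gene, or belong to a separate gene. Long noncoding RNAs are transcripts that do not encode a long protein, and many of them are spliced and polyadenylated like messenger RNAs. Many mammalian promoters, above all those rich in the dinucleotide CG, start transcription in both directions. At this stage most blood cells are formed in the liver, beside hepatocytes that have not matured.

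Several long members lay where a later annotation, GENCODE M21 on the build GRCm38, placed long noncoding RNA genes between the same flanking genes. The promoters of 3 of these later genes are shown because long, spliced members stood in their intervals. Each is a RefSeq sequence of GRCm38.p6 of 300 bases at the start that RefSeq gives the gene, 5′ to 3′ on the gene's strand, with every CG in capitals. The window of Lockd is chr6:134928842-134929141 on the plus strand, that of 5430401H09Rik is chr12:32123774-32124073 on the minus strand, and that of AU020206 is chr7:75782071-75782370 on the minus strand.
Lockd: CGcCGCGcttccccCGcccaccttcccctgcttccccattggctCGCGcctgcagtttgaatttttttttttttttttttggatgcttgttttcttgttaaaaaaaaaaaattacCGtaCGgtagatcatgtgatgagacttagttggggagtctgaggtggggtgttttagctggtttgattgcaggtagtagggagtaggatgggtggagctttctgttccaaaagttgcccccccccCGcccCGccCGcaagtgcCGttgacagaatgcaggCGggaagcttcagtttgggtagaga
5430401H09Rik: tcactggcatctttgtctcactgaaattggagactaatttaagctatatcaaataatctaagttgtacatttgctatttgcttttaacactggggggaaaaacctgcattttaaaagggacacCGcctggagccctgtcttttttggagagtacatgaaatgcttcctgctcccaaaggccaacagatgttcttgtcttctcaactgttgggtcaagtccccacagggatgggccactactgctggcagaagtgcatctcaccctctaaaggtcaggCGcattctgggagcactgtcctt
AU020206: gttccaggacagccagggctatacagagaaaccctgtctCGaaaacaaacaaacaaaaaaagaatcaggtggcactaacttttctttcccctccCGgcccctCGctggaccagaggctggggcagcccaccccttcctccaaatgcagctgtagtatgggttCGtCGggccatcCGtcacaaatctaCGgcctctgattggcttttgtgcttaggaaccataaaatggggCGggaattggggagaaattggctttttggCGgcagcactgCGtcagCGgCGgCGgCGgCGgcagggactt
The window of 5430401H09Rik lies wholly before the start that GENCODE M21 gives that gene, at base 32123702. The Lockd window holds 13 CG dinucleotides, the 5430401H09Rik window 2 and the AU020206 window 15. At least as many stood in 38.5%, 85.4% and 35.2% of the 27025 promoters of the same length.

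The fourth highest member stood in an interval where the later annotation holds the microRNA gene Mir6236. Its mature RNA, mmu-miR-6236, is annotated by RefSeq at chr9:110281353-110281371 of GRCm38.p6 on the plus strand and is printed 5′ to 3′ with bases 2 to 8, the seed, in capitals.
mmu-miR-6236: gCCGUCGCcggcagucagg

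The libraries carried the marker genes of fetal liver. Median levels in TPM, a transcript share scaled for length, in replicates 1 and 2 were 113774 and 106355 over 4 adult globin genes, 109 and 126 over 45 erythroid genes, and 221 and 234 over 40 fetal hepatocyte genes. Striated muscle genes, which mark adjacent tissue, had medians of 5.30 and 0.160 TPM over 13 genes, and 4 of the 13 reached 1 TPM in both libraries. No member had a striated muscle gene as its nearest gene. In RNA of a whole organ, fewer cells of a type and less RNA per cell cannot be told apart.

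Most members were weakly covered, and a few were among the most covered stretches of the list. The level, as deposited for both libraries together, is mapped bases divided by the length of the contig and by 1 constant for the whole list, so it compares contigs of different lengths. Members had a median level of 0.126, with quartiles of 0.088 and 0.26 and a range of 0.035 to 5130. Reproducible contigs in genes on the gene's strand had a median level of 0.26, and those only antisense to a gene 0.144. Of the members, 1892 (9.76%) reached a level of 1 and 50 (0.258%) a level of 100, against 27.4% and 0.120% of the reproducible contigs in genes on the gene's strand. These shares were not tested, since neighbouring contigs can belong to 1 transcript. Members covered 21.1 megabases in all and held 2.11% of the mapped bases in contigs. The 2 members with the most mapped bases held 22.2% of all member bases, the top 10 held 38.7% and the top 100 held 70.5%.

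**Figure D1:**
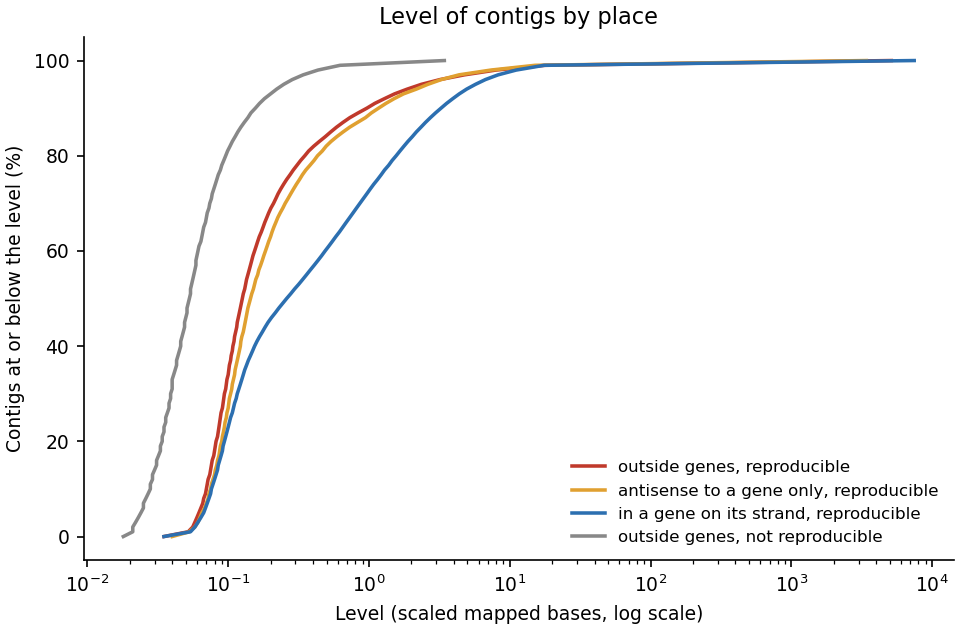
Cumulative share of contigs (%) against level (mapped bases scaled for length, log scale) for reproducible contigs outside genes (red), reproducible contigs antisense to a gene (orange), reproducible contigs in a gene on its strand (blue) and contigs outside genes that were not reproducible (grey). The red curve crosses 50% at 0.126, left of the blue curve at 0.26, and all 3 reproducible sets reach past 1000.

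The irreproducibility value followed the mapped bases closely, so level and length of members are tied to the rule that chose them. No reproducible contig held fewer mapped bases than 2208, the equal of 21.9 full reads, and no other contig held more than 2280. Only 162 members (0.835%) lay in the zone where the sets met. The value is deposited with 2 decimals, and 14803 members (76.3%) had 0 while 4589 had 0.01. Just inside the threshold, the highest levels at 0.01 were 15.9 for chr12:40245771-40245791, 10.8 for chr12:100361722-100361758 and 6.42 for chr2:162927592-162927643. Just outside it, at 0.02, the highest were 3.43 for chr9:33940541-33940552, 3.36 for chr14:55339253-55339263 and 2.94 for chr1:174364681-174364693. All 6 were shorter than a read. Outside genes, 14.9% of 130053 contigs were reproducible, against 39.5% of those in a gene on its strand and 12.9% of those antisense to a gene.

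Member lengths had a median of 807 bases, with quartiles of 505 and 1254 and a range of 12 to 28071. Reproducible contigs in genes on the gene's strand had a median of 919 bases. Members shorter than a read numbered 1257 (6.48%), against 1.78% of the genic ones. The median member held mapped bases equal to 46.9 reads. Members within 1000 bases of each other on a strand formed 12484 loci, of which 9000 (72.1%) had 1 member, 427 had 5 or more and the largest had 24. The largest locus, on the minus strand at chr12:84759779-84794580, held members at levels of 0.064 to 0.293 in an interval that ends at Dcaf4, 66835 bases away.

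**Figure D2:**
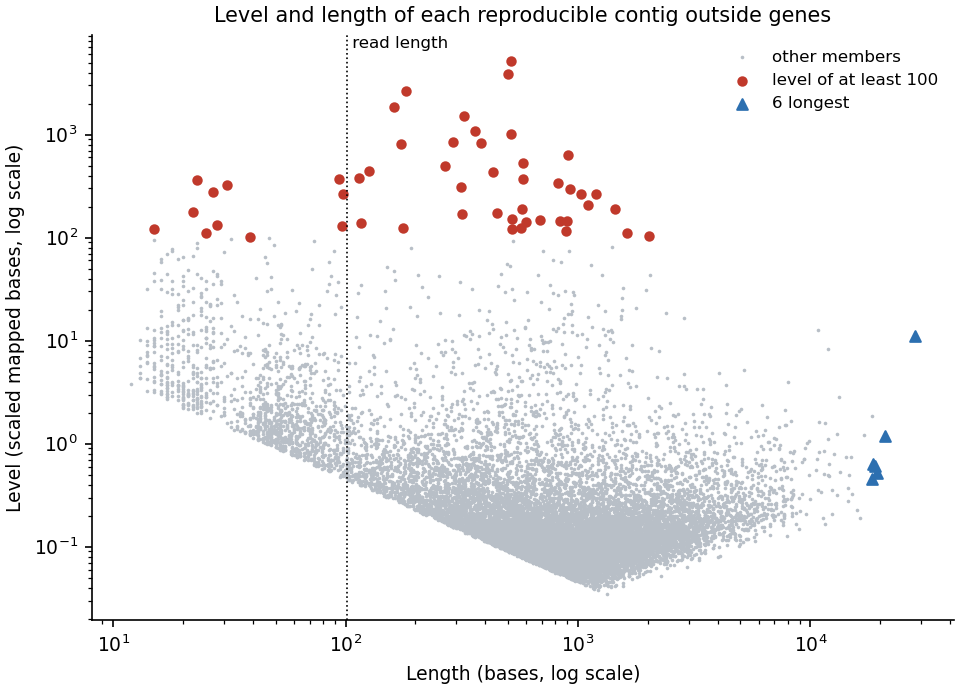
Level (mapped bases scaled for length, log scale) against length (bases, log scale) of the 19392 members, with the 50 members at a level of at least 100 in red and the 6 longest as blue triangles; the dotted line marks the read length. The lower left edge is the smallest number of mapped bases that was reproducible, the red points span lengths of 15 to 2028 bases, and the longest member stands apart at 28071 bases and a level of 11.

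The 6 longest members all carried splice junction reads and lay in intervals that hold later genes on their strand. The longest of all, chr12:32780827-32808897 on the minus strand, had a level of 11 over 28071 bases and lay 34665 bases upstream of Prkar2b, which encodes a regulatory subunit of protein kinase A. Reads across splice junctions with an end in it numbered 2704 in the first and 4023 in the second of 2 replicates that the junction list does not name. The ratio of the second to the first, scaled by all junction reads, was 0.07 on the log2 scale (exact conditional 95% interval 0.00 to 0.14, counting error only). Scaled junction reads of this member were therefore nearly the same in both unnamed replicates. Reads were summed over junctions, so a read across several junctions is counted at each, and intervals of such sums do not allow for this. It belonged to a row of 14 members between Prkar2b and Pik3cg, a gene for a catalytic subunit of phosphoinositide 3-kinase, at levels of 0.085 to 11 and with a median of 0.136. The interval measures 112176 bases on both builds. GENCODE M21 places the long intergenic noncoding RNA genes Gm33111 and 5430401H09Rik in it on the same strand, 11989 and 35316 bases from Prkar2b, with spans of 7565 and 27090 bases. The near end of the member of 9831 bases at a level of 1.07 lay 10427 bases from Prkar2b. Counted from Prkar2b in each build, the near ends of the 2 most covered members of the row thus lay slightly closer than those of the later genes.

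Lockd is a long noncoding RNA gene downstream of the cell cycle inhibitor gene Cdkn1b. It had 111 and 94.97 TPM in replicates 1 and 2, a mean of 103 ± 11.1 TPM (SD, n = 2). The 12 members on the plus strand between Cdkn1b and Apold1 covered 41979 bases. The member chr6:134878959-134897303 had a level of 1.85 over 18345 bases, and chr6:134897340-134910619, the next one on, had 2.83 over 13280 bases. The other 10 had levels of 0.047 to 0.311. The first of the pair starts 3427 bases from the end of Cdkn1b on mm9, and Lockd starts 3578 bases from it on GRCm38. A junction that joins the pair across 22045 bases had 744 reads in the first and 872 in the second unnamed replicate. Cufflinks, which builds transcript models from reads, gave a model of 9 exons over both members, at 0.0256 and 0.0628 RPKM, a read count scaled for length and depth.

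AU020206, also a long intergenic noncoding RNA gene, had 11.9 and 13.0 TPM in replicates 1 and 2 (mean 12.5 ± 0.792, SD, n = 2). Its interval, between Gm23251 and Klhl25, held 8 members on the minus strand. The member chr7:82913857-82925771 had a level of 8.22 over 11915 bases and its near end lay 11602 bases from Gm23251, against 11669 bases for the later gene. The 7 others had levels of 0.068 to 0.554. The 5 other longest members, of 18408 to 20995 bases, had levels of 0.452 to 1.2, with 54 to 820 junction reads in the first and 118 to 1450 in the second unnamed replicate. In each of the 3 intervals above, the long members had higher levels than the shorter ones around them.

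**Figure D3:**
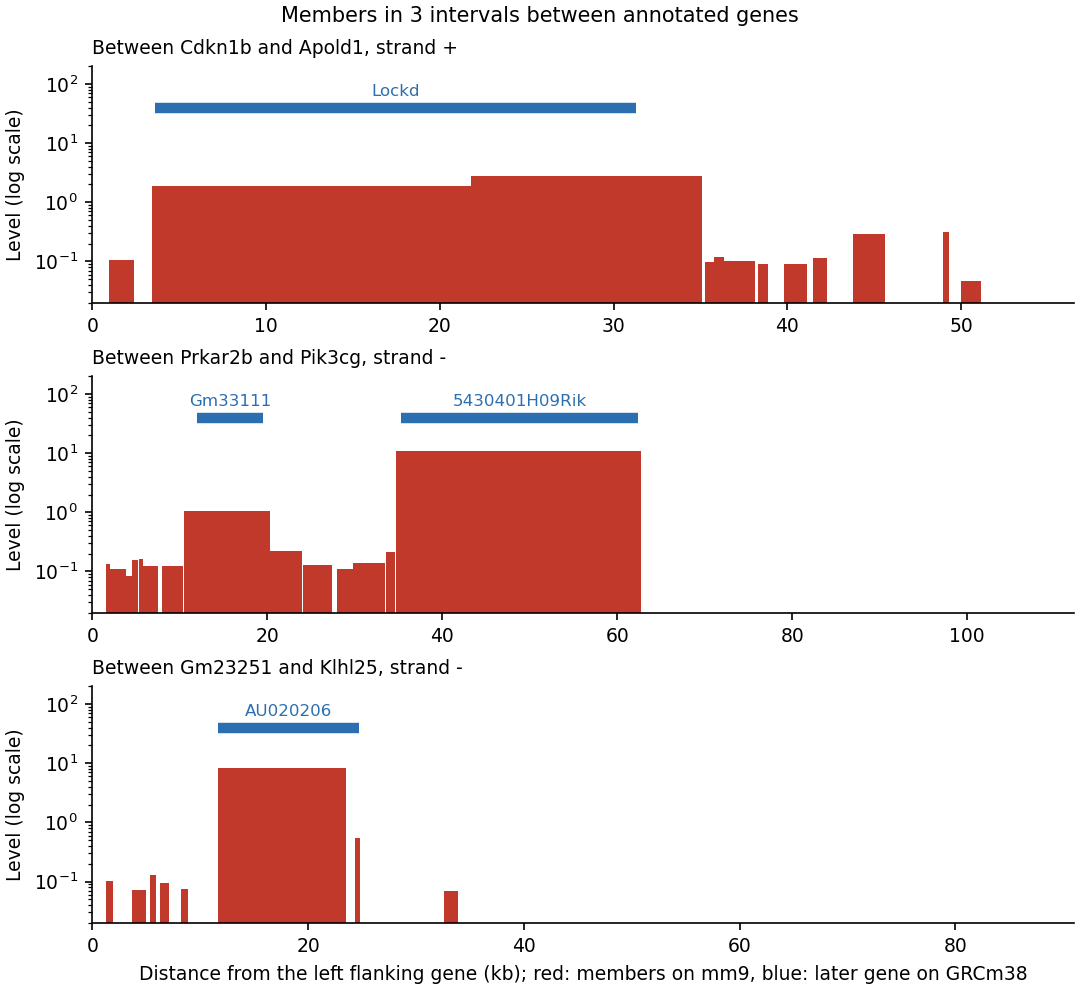
Level (mapped bases scaled for length, log scale) of each member as a red block against its distance in kb from the left flanking gene on mm9, in the intervals from Cdkn1b to Apold1 (plus strand), Prkar2b to Pik3cg (minus strand) and Gm23251 to Klhl25 (minus strand); blue bars give the span of later genes, measured from the same flanking gene on GRCm38. The blocks at levels of 1.85, 2.83, 11 and 8.22 lie by Lockd, 5430401H09Rik and AU020206, and lower blocks surround them.

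A minority of members shared their interval with a later gene on their strand. The flanking genes kept their order on GRCm38 for 15585 members (80.4%), and 5185 of these (33.3%) had a later gene on their strand in the interval, while 4305 (27.6%) had 1 on the opposite strand. For 2936 members there was exactly 1 such gene, a processed pseudogene for 1070, a long intergenic noncoding RNA for 1056 and a gene to be experimentally checked (TEC) for 379. These 2936 members pointed to 1189 later genes, of which 345 had a TPM value and 14 reached 1 TPM in both libraries. The 14 were picked after their values were seen. Besides Lockd and AU020206, they include the protein-coding gene Smim22 at 10.8 and 10.2 TPM in replicates 1 and 2. Its interval between Sept12 and Rogdi held members at levels of 1.19 and 2.68. The noncoding gene 2810030D12Rik had 4.63 and 5.54 TPM, and the highest of the 4 members in its interval, chr8:13200645-13203894, had a level of 3.39 and started 24 bases from Grtp1 on the opposite strand. The processed pseudogene Gm4617 had 11.2 and 8.16 TPM, and the member in its interval, chr3:124088427-124089624, had a level of 265. Sharing an interval does not place a member on a gene: Rpl24, a ribosomal protein gene, had 474 and 526 TPM, but the member in its interval had a level of 0.132.

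The most covered members were short by median, and few of them had a nearest gene at 1 RPKM or more. The highest, chr3:5860318-5860830 on the plus strand, had a level of 5130 over 513 bases and lay 284078 bases from Pex2, a peroxisome assembly gene. The second, chr11:108872949-108873448 on the minus strand, had 3860 over 500 bases and lay 2853 bases from the pseudogene Gm11668. A level of 2620 was reached by chr6:49186436-49186617, downstream of the splicing regulator gene Tra2a by 7302 bases. The member in the interval of Mir6236, chr9:110183728-110183889, had a level of 1870 over 162 bases. It starts 18648 bases from Cspg5 on mm9, and Mir6236, of 123 bases, starts 18710 bases from it on GRCm38. Mir6236 itself was listed at 0 TPM in both libraries. The other 8 of the 12 highest had levels of 531 to 1530. Over the 50 members at 100 or more, the median length was 406.5 bases, against 807 over all members. Their median gap to a gene was 25758.5 bases, against 5768. A nearest gene at 1 RPKM or more was found for 7 of 50 (14%), against 47.9% of all members. These 50 held 59.5% of all member bases. How reads that match several places were counted is not given in the sources used here, and its part in these levels was not tested.

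Each of the 12 highest members overlapped a Cufflinks model, and 9 of these models had at least 1 RPKM in either unnamed replicate. Of the 9, 2 passed 2-fold between the unnamed replicates on log2(RPKM + 0.1), against 3.98% of all 3316 models at that level. The Cufflinks model over chr6:3150766-3151675, at a level of 631, had 180 RPKM in the first and 66.3 RPKM in the second. That over chr3:53496266-53496843, at a level of 531, had 0.141 RPKM in the first and 2.39 RPKM in the second. The model over the highest member had 758 and 813 RPKM, close to each other. By contrast, models over the members at levels of 2620, 1870 and 804 were low. They had 0.0832 and 0.267, 0.00781 and 0, and 0.00932 and 0 RPKM in the first and second unnamed replicates.

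Members lay closer to genes than the contigs outside genes that were not reproducible, which held fewer mapped bases. The gap to the nearest gene had a median of 5768 bases, with quartiles of 1726.75 and 19343 and a maximum of 1139094, against a median of 10131 bases for the others. Gaps under 5 kb were found for 9062 members (46.7%) and 35.1% of the others. The farthest member, chr14:81561762-81561913, had a level of 0.316 and lay beyond Olfm4. The next was chr7:101320642-101320702 at a level of 1.07, 992462 bases from the pseudogene Gm15501. All 5 of the farthest had no junction reads and levels of 0.203 to 1.07. Median level was 0.119 under 1 kb and 0.232 at 50 kb or more, and median length was 879 and 567.5 bases. The farthest class was thus shorter and more densely covered by median. Because the irreproducibility value followed mapped bases, a shorter member needed a higher level to be chosen. The contigs outside genes that were not reproducible went the same way. Their median levels were 0.05 and 0.063, and their median lengths 237 and 94 bases.

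The strand of the nearest gene was shared by 11205 members (57.8%) and by 55.1% of contigs outside genes that were not reproducible. By side, 7197 members (37.1%) lay downstream of the nearest gene on its strand, the position of a transcript that runs past the annotated end. A further 5174 (26.7%) lay upstream on the opposite strand, the position of divergent transcription. The remaining 4008 (20.7%) were upstream on the same strand and 3013 (15.5%) downstream on the opposite strand. Under 1 kb, 38.3% of 3343 members were downstream on the same strand and 35.99% upstream on the opposite one, against 34.5% and 28.7% of the contigs that were not reproducible. At 1 to 5 kb the members' shares were 43.0% and 25.6%, and at 5 to 10 kb 38.7% and 24.1%. They were 32.7% and 23.7% at 10 to 50 kb, and 28.2% and 25.8% at 50 kb or more. Because neighbouring members can belong to 1 transcript, these differences were not tested.

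**Figure D4:**
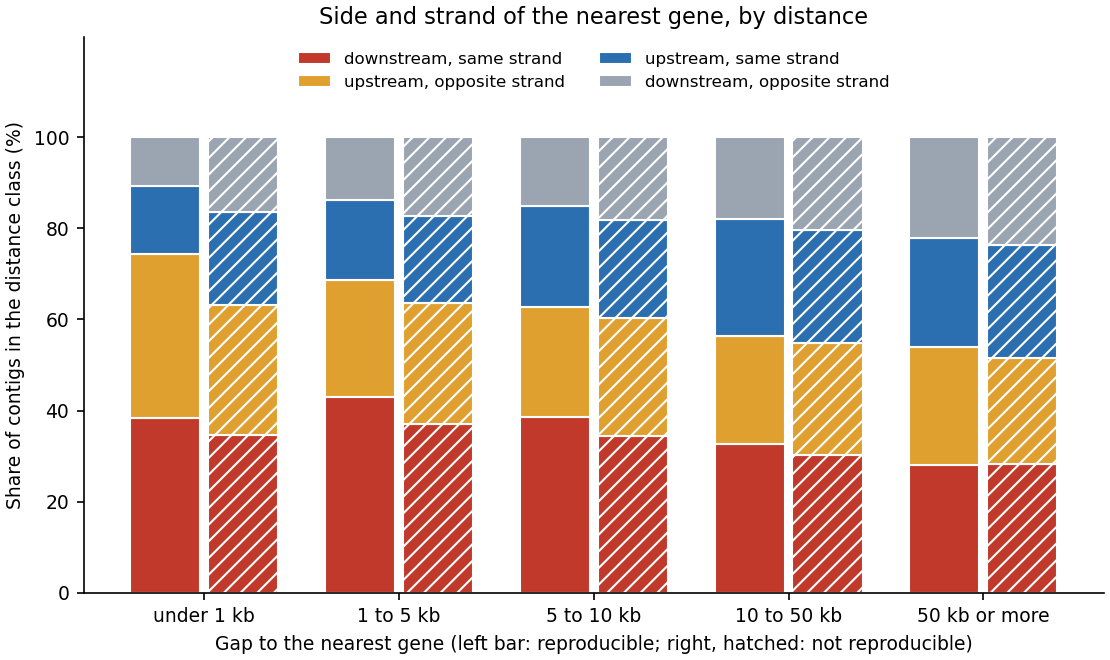
Share (%) of contigs in each distance class by side and strand of the nearest gene, for reproducible contigs outside genes (left bar of each pair) and contigs outside genes that were not reproducible (right, hatched). Under 1 kb the red and orange parts, downstream on the same strand and upstream on the opposite strand, are 38.3% and 35.99% on the left and 34.5% and 28.7% on the right.

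Many members had an expressed gene beside them. The nearest gene had at least 1 RPKM, as a mean of both unnamed replicates, for 47.9% of members, against 37.0% of contigs that were not reproducible. Of all 37310 genes, 24.9% reached that level. The share was 74.4% for members upstream on the opposite strand under 1 kb, with a median of 2.72 RPKM, and 61.2% for those downstream on the same strand under 1 kb, with a median of 1.69 RPKM.

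Downstream on the same strand, 3741 members (19.3%) lay within 5 kb of the gene, against 12.7% of contigs that were not reproducible. They belonged to long rows in some cases. Of 3522 genes with a member in this position at any distance, 272 had 5 or more and 48 had 10 or more. Phxr4 had 48, reaching 92883 bases past its end at levels of 0.051 to 0.663, and the gene was at 0.0800 and 0.0400 TPM in replicates 1 and 2. D1Ertd622e had 35, reaching 176066 bases at levels of 0.05 to 0.407, with 28.8 and 34.1 TPM. 3830408C21Rik had 31 at levels of 0.066 to 1.98, and F930017D23Rik and Scaf8, which encodes a factor that binds the tail of RNA polymerase II, had 26 and 25. Gm5537, a pseudogene, had 29, and it was the only one of these 6 whose members were all joined to it by a Cufflinks model. No model joined the members to any of the other 5 genes, though splice junctions joined 5 members to D1Ertd622e, 4 to F930017D23Rik, 2 to Scaf8 and 1 to 3830408C21Rik. Over all members downstream on the same strand, a model joined 20.4% to the nearest gene, and 31.7% under 1 kb. A splice junction joined 7.38%, but only 0.931% with at least 10 reads. Next to Elane, the neutrophil elastase gene, with 38.1 and 63.7 TPM, chr10:79351103-79351949 had a level of 58, lay 141 bases past the gene and shared a model of 8 exons with it. It had 3 and 1 junction reads in the first and second unnamed replicates, and its interval holds a later gene on its strand, the processed pseudogene Gm19810.

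Upstream on the opposite strand, 1203 members lay under 1 kb from 1135 genes, with a median level of 0.131 and a median length of 889 bases. A level of 1 was reached by 58 of these 1203 members, against 9.76% of all members. A junction of at least 10 reads was found for 93 (7.73%), against 9.65% of all members. Next to Hand2, a transcription factor gene of heart and limb development, chr8:59797720-59799317 had a level of 0.383 and 89 and 128 junction reads in the first and second unnamed replicates. Tspan31, a tetraspanin gene at 29.0 and 34.7 TPM in replicates 1 and 2, had chr10:126507497-126508805 at a level of 1.26 with 110 and 154 junction reads. The highest of the group, chr11:106078154-106078175 at 66.9 next to the RNA helicase gene Ddx42, was only 22 bases long. These members were picked after their values were seen.

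Promoters of expressed genes with such members held slightly more CG dinucleotides by median than those of expressed genes as a whole, a difference that was not tested. Among protein-coding genes at 1 RPKM or more, 672 of 827 with a member upstream on the opposite strand under 1 kb matched a RefSeq promoter by symbol. Their windows of 300 bases held a median of 25 CG dinucleotides, with quartiles of 19 and 32. Those of 526 of 635 genes with a member downstream on the same strand under 1 kb, but none upstream on the opposite strand, held a median of 22, with quartiles of 15 and 29. Over all 8374 protein-coding genes at 1 RPKM or more, of which 6711 matched, the median was 22, with quartiles of 15 and 29. Over all 27025 promoters, which include those of silent genes, the median was 7. The letters TATAAA on either strand stood in 5.21% of the first set, 7.22% of the second, 6.38% of those of all expressed protein-coding genes and 14.2% of all promoters. Median RPKM was 4.09 and 4.10 in the 2 sets and 3.65 over all expressed protein-coding genes.

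Members next to marker genes of fetal liver mostly had low levels. Of all genes 21.1% were nearest to a member, and of genes at 1 RPKM or more 38.4%. Of 45 erythroid genes in the mm9 table, 28 were nearest to 129 members, 57 of them upstream on the opposite strand and 33 downstream on the same strand, with a median level of 0.11 against 0.126 over all members. Tspan33, a tetraspanin gene of red cell precursors, had 16 members. Gata1, the master transcription factor gene of red cells, had 7 at levels of 0.065 to 0.187, 6 of them upstream on the opposite strand. Bpgm, the enzyme that makes bisphosphoglycerate, had 7, all downstream on the same strand. The highest level of this list, 5.96, was that of chr3:14802143-14802802, which lay 23683 bases upstream of Car1, a carbonic anhydrase gene. Fetal hepatocyte genes were nearest to 46 members from 20 of 40 genes, at a median level of 0.125, and Alb, the albumin gene, had 7 at levels of 0.067 to 0.423. Albumin itself stood at 9112 and 10441 TPM in replicates 1 and 2. Adult globin genes had 5 members nearest to them, the highest being chr7:110964204-110964488 at 2.26, between Hbb-bt and Hbb-bs. Macrophage genes, with medians of 21.9 and 24.3 TPM in replicates 1 and 2, had no member.

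Imprinted genes, which are expressed from the copy of 1 parent, had 37 members next to 9 of 16 genes, 23 of them upstream on the opposite strand. Peg3, a zinc finger gene expressed from the paternal copy, had 14 such members over 26185 bases at levels of 0.035 to 0.827. The longest, chr7:6711995-6722850, had a level of 0.827 over 10856 bases. At the Dlk1 and Meg3 locus, 12 members on the minus strand lay between both genes. GENCODE M21 places the noncoding gene Gm34081 there on that strand.

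Splicing was seen in many members and was mostly thin. Junction ends on the same strand fell within 8532 members (44.0%), within 3446 (17.8%) by a junction with reads in both unnamed replicates, and within 1872 (9.65%) by a junction of at least 10 reads. The 39539 junctions that touched members held 94077 reads in the first and 147710 in the second unnamed replicate. These were 0.117% and 0.129% of all junction reads. None of the junctions was annotated, but members share no base with an ENSEMBL gene by rule, so few annotated junctions could touch them. At least 100 junction reads were found for 442 members and at least 1000 for 35. Of 1232 junctions of members with at least 20 reads, 247 (20.05%) differed by more than 2-fold between the unnamed replicates after scaling by all junction reads, against 6.98% of 147255 such junctions in the list. Of the 247, 186 were higher in the second and 61 in the first, and of the 10279 such junctions in the list 7164 and 3115. With 1 library on each side this is a size and not a test. The 2 sets were not matched for reads per junction, and the part of read number in these shares was not tested.

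Cufflinks models, built from the same reads, covered most members. A model on the same strand overlapped 15108 members (77.9%). For 11669 members (60.2%) no such model reached a known gene, and for 3439 (17.7%) 1 did. Of the members with a model, 61.0% had a best model of several exons. Among 11757 models that overlap members, 99 (0.842%) passed 2-fold between the unnamed replicates on log2(RPKM + 0.1), against 1.33% of all 66311 models. Median RPKM of these models was 0.0181 in the first and 0.0204 in the second, below the pseudocount of 0.1, so few could pass. At 1 RPKM or more in either unnamed replicate, 35 of 401 models that overlap members (8.73%) passed, against 3.98% of all.

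Some members had more junction reads than reads' worth of mapped bases. The member with the most junction reads, chr12:105064202-105066267, had 7915 and 10675 in the first and second unnamed replicates. Its mapped bases equalled 368 reads, at a level of 0.363 against a median of 0.126 over all members. This member lay 3748 bases upstream of Gm8893, and a single junction of 95378 bases held 7609 and 10178 of its reads. Next to the gene Hamp2, the paralogue of the iron hormone gene Hamp, chr7:31711855-31711983 had 3931 and 5696 junction reads on mapped bases equal to 25.9 reads. The members chr12:34504996-34505010 and chr12:34647727-34647751, of 15 and 25 bases, had levels of 120 and 111 and were joined by 1 junction of 142718 bases with 3270 and 3770 reads. In all, 384 members (1.98%) had more junction reads than reads' worth of mapped bases, with a median length of 133 bases. The member chr5:23205404-23216232 was of another kind, with a level of 12.7 over 10829 bases and 1505 and 3607 junction reads. Its scaled log2 ratio of the second to the first was 0.76 (exact conditional 95% interval 0.67 to 0.85, counting error only), which is a larger difference than for the member next to Prkar2b.

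**Figure D5:**
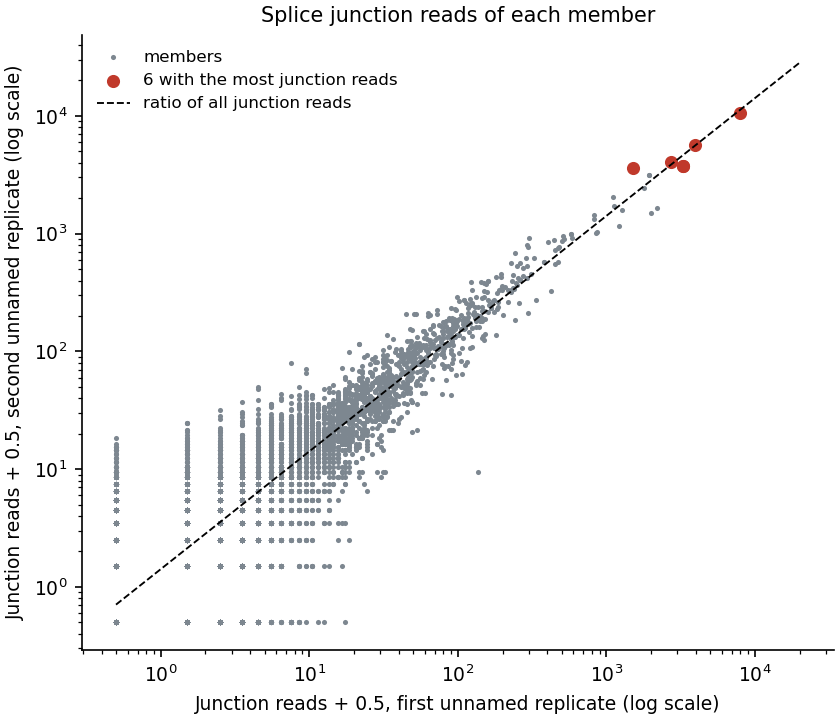
Junction reads + 0.5 of each member in the second unnamed replicate (y axis, log scale) against the first (x axis, log scale), with the 6 members that have the most junction reads in red and the ratio of all junction reads as a dashed line. Of the red points, that of chr5:23205404-23216232 lies above it, at 1505 reads in the first and 3607 in the second.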

How the data were processed

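RNA was measured by sequencing in 2 libraries of 1 group, and the members and gene lists were chosen with earlier results of these data known. The contig signal (level), the mapped bases and the irreproducibility score were deposited by the authors for both libraries together on mm9, so contig values carry no SD or n. Level times length and mapped bases stood in 1 ratio, 49.6, over the list. Junction counts were deposited as whole reads per junction for 2 unnamed replicates. The authors' RPKM values of ENSEMBL genes and Cufflinks models, per the file headers on mm9, also name no replicate. The expected count and TPM values were deposited by the authors per library on mm10 with GENCODE M4, and the expected counts on genes came to 97174776 and 149348513 in replicates 1 and 2. The sources used here do not name the aligner, the contig caller or the program behind these values.

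Contigs were placed against 37310 gene spans, each listed more than once in a table of 74620 lines, with the mitochondrion named alike in both. Gaps count the bases between a contig and the nearest gene on either strand. Of the genes, 32620 matched a symbol by identifier. Junctions and models were counted on the member's strand, and loci merge members across 1000 bases. Later genes were GENCODE M21 genes absent from the mm9 table and lying between the same flanking genes; no coordinate was converted. Interval code was tested on simulated data. Rules for naming took the 12 highest members, the 6 longest, the 5 farthest and the 6 with the most junction reads. They also took 3 contigs on each side of the threshold and the 6 loci with the most level times length. The 6 genes with the most members downstream were taken, and the highest member next to each of 13 gene lists, where a list had any. Not every choice of these rules is named in the text. Some of the other members named are marked as picked after their values were seen. Others carry no mark but were also named outside these rules, among them the locus with the most members. So were the members next to Tspan33, Gata1, Bpgm, Alb and Peg3 and those between Dlk1 and Meg3. The 6 loci were single contigs among the 12 highest. Alternatives were other thresholds, lengths, strands, gaps, distances, pseudocounts and junction filters, numbered chromosomes with X and Y only, and each unnamed replicate left out. Scripts ran in Python 3.11.15 with pandas 2.3.3 and numpy 2.4.6, intervals came from scipy 1.17.1 and figures from matplotlib 3.10.9.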

Additional observations from a re-analysis of the deposited data

How the results depend on the processing

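Over 56 alternatives, 26 values stayed within the binomial 95% interval of the reported one (counts within 1.5 times) and 30 moved. The alternative with numbered chromosomes, X and Y only left the same 19392 members. Its values could not move, and they are counted among the 26. At an irreproducibility value of at most 0.001 the median level was 0.143, the median length 949 bases and the share with a junction 48.9%; at 0.05 there were 30335 members, with 0.104, 615 bases, 36.6% with a junction and 72.9% with a model. Counting overlap on the contig's own strand only gave a median level of 0.131, a median gap of 2461 bases, 42.2% on the nearest gene's strand, 14.1% downstream on it within 5 kb, 68.5% with a model and 45.8% with a junction. Contigs of at least 200 bases gave 0.117, 873 bases, a gap of 5099 bases, 58.6%, 20.8%, 79.7% and 42.4%. With overlap on the own strand only, the added contigs were antisense to a gene. They were given no gap and counted as neither on the nearest gene's strand nor downstream. The moved gap, strand share and downstream share of that alternative follow from this rule, and they are counted among the 30. The share downstream on the same strand was 6.61% within 1 kb and 25.3% within 10 kb. Models that cover most of the contig overlapped 76.6% of members. Junctions of at least 10 reads left 9.65%, and leaving out either unnamed replicate gave 31.6% to 37.2%. The median absolute log2 ratio of model RPKM, 0.10, was 0.012 with a pseudocount of 1 and 0.40 over 401 models at 1 RPKM or more. Unscaled junction counts put 38.5% of junctions past 2-fold. Number of loci moved under none of its 7 alternatives by the limit of 1.5 times, but ranged from 9963 to 18125 against 12484. No paired analysis was possible because there is 1 group. Depth limits the set through mapped bases and not level: no contig under 2208 mapped bases was called reproducible, and 110661 contigs outside genes were detected but not reproducible.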
